A study of Bos taurus with 8 samples.

Results

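The genes described are 10 antioxidant and thioredoxin genes, chosen by symbol from a list: NQO1, GSR, GCLM, CAT, SOD1, SOD2, PRDX1, PRDX2, TXN and TXN2. Each symbol was carried by a single feature among the 21258 features of the files, so all 10 were found, and all 10 were among the 14839 features that were tested. Their RNA was measured in pools of 8 Holstein cattle embryos at the eight-cell stage, 1 library per pool. There were 2 libraries of cloned embryos from somatic cell nuclear transfer with overexpression of the histone demethylase KDM4E (KDM4E-SCNT), 3 libraries of embryos from in vitro fertilisation (IVF) and 3 libraries of cloned embryos without that overexpression (SCNT). In nuclear transfer the nucleus of an egg is replaced by that of a body cell, and the labels do not give the donor cell, the way KDM4E was overexpressed or the hour of collection. The labels do not say whether each pool came from its own batch of embryos, so p-values measure the spread between these libraries, which may be technical.

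Cells remove superoxide, hydrogen peroxide and oxidised thiols through linked reactions. Superoxide dismutases turn superoxide into hydrogen peroxide, which catalase and the peroxiredoxins remove. Thioredoxins reduce peroxiredoxins and ribonucleotide reductase, and glutathione is kept reduced by glutathione reductase, with NADPH as the source of electrons for both systems. Several of these genes, NQO1 and GCLM best known among them, are targets of the transcription factor NFE2L2 in mouse and human cells. Embryos cultured in vitro can be exposed to more oxygen than embryos in the oviduct, depending on the culture. Until the embryonic genome is switched on, around the eight-cell stage in cattle, embryos draw on RNA and protein stored in the egg.

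Values are FPKM, fragments scaled by transcript length and by the fragments of the library. Length is divided out, so levels of different genes are set side by side, though how evenly each gene was captured is unknown. The number of fragments per library was not given, so depth is unknown, and 10975 to 13050 features per library stood at 1 FPKM or more. The feature taken for the overexpressed gene, LOC524768, an uncertain match, stood at 101.85 and 206.44 FPKM in KDM4E-SCNT, 88.34 to 109.12 in IVF and 25.44 to 33.93 in SCNT. All 11 measured markers of oocytes and embryos were above 1 FPKM in every library. Their summed level was 21243 and 25254 FPKM in KDM4E-SCNT, 27299 to 34855 in IVF and 4783 to 9970 in SCNT. BTG4 gave most of that sum in every library. It stood at 16016.75 and 18165.42 FPKM in KDM4E-SCNT, 18515.62 to 26547.65 in IVF and 3269.17 to 7818.16 in SCNT. Of the 11 markers, 10 were called higher in KDM4E-SCNT than in SCNT, where 21.6% of all tested features were. In IVF against SCNT all 11 were called higher, where 34.9% of all tested features were. The summed level of 20 fibroblast markers was 120 and 515 FPKM in KDM4E-SCNT, 55.3 to 79.4 in IVF and 136 to 206 in SCNT. Of the 14 fibroblast markers tested, 3 were called higher and 1 lower in KDM4E-SCNT than in SCNT, 2 higher and 6 lower in IVF than in SCNT, and 5 higher in KDM4E-SCNT than in IVF. Of all tested features, 11% were called lower in KDM4E-SCNT than in SCNT and 23.6% lower in IVF than in SCNT. In KDM4E-SCNT against IVF 5.9% were called higher. These shares, with the 21.6% and 34.9% above, also stand beside the marker counts that follow. The marker COL6A2 was at 0 in KDM4E-SCNT replicate 1 and in all IVF and SCNT libraries. The 3 fibroblast markers of highest mean differed widely between KDM4E-SCNT replicates 1 and 2. LGALS1 stood at 10.94 and 127.17 FPKM, SPARC at 10.4 and 53.32 and TIMP1 at 5.02 and 135.01. Summed over 9 cumulus and granulosa markers the level was 46.1 and 99.7 FPKM in KDM4E-SCNT, 102 to 163 in IVF and 16.9 to 25.5 in SCNT. HAS2 and STAR together took most of that sum in every library. TNFAIP6 went the other way between IVF (0.83 to 2.64 FPKM) and SCNT (3.7 to 8.19). The 8 measured sperm markers summed to 52.2 and 60.2 FPKM in KDM4E-SCNT, 73.5 to 96.9 in IVF and 26 to 44 in SCNT. LDHC took most of the sperm sum in KDM4E-SCNT (39.34 and 45.25 FPKM) and IVF (59.61 to 80.85), and stood at 4.51 to 5.73 in SCNT. CRISP2 went the other way, at 3.65 and 2.64 FPKM in KDM4E-SCNT, 1.15 to 2.73 in IVF and 17.53 to 34.26 in SCNT. The 8 blood markers summed to 29.6 and 44.3 FPKM in KDM4E-SCNT, 12.8 to 19.2 in IVF and 37.2 to 76.7 in SCNT. HBA took most of that sum in both cloned groups, at 24.36 and 38.12 FPKM in KDM4E-SCNT and 35.71 to 68.86 in SCNT. In contrast, SCNT was below IVF in CD3E (0.67 to 1.69 against 2.5 to 6.62 FPKM) and PTPRC (0 to 0.1 against 1.29 to 7.13). Of 4 cumulus and 7 sperm markers tested, 2 and 2 were called higher and 0 and 1 lower in KDM4E-SCNT than in SCNT in limma (3 and 3 higher and 0 and 1 lower at an unadjusted p under 0.05). In IVF against SCNT, 3 of each were higher and 1 of each was lower, as were 3 and 1 of 6 blood markers. Of the blood markers 0 were called in KDM4E-SCNT against SCNT, and 1 was higher at an unadjusted p under 0.05. Genes encoded in mitochondria took 11% and 11.5% of the summed FPKM in KDM4E-SCNT, 6.08% to 7.1% in IVF and 7.54% to 10.6% in SCNT. The part of these differences in markers and mitochondrial share, and of the KDM4E-SCNT libraries' distance from each other, in the results that follow was not tested.

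The antioxidant enzymes were higher in IVF than in SCNT embryos, and the thioredoxins were lower. In IVF against SCNT, 8 of the 10 genes were called higher, all but TXN and TXN2, which were called lower (limma adjusted p under 0.05). Over all features tested 34.9% were called higher and 23.6% lower, so a call by itself was common. Except in SOD2, no library of one group overlapped the other, as was so for 64.4% of all features (38.5% higher and 25.9% lower). The median log2 difference was 1.64 over the 10 genes and 0.39 over all features. The 10 genes were chosen with earlier results of these data known. The counts and medians here and below therefore do not test whether antioxidant genes stand out. In KDM4E-SCNT against SCNT, 5 of the 10 were called higher, where 21.6% of all features were, namely NQO1, GSR, SOD1, PRDX1 and PRDX2. None was called lower, where 11% of all features were, and at an unadjusted p under 0.05 TXN2 alone was lower. The libraries did not overlap in 8 genes, 7 of them higher and TXN2 lower, beside 59.5% of all features (38.1% higher and 21.4% lower). The median log2 difference in this comparison was 1.23 over the 10 genes and 0.32 over all features. Of the 5 calls, 4 remained when KDM4E-SCNT replicate 2 was left out and PRDX2 did not (adjusted p = 0.0568). In KDM4E-SCNT against IVF, TXN and TXN2 were called higher and CAT lower, where 5.9% of all features were called higher and 0.62% lower. The libraries did not overlap in 4 genes, these 3 and GSR, beside 33.9% of all features. Because the comparisons share libraries, their values are given side by side for each gene and not set against each other as independent results.

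**Figure D1:**
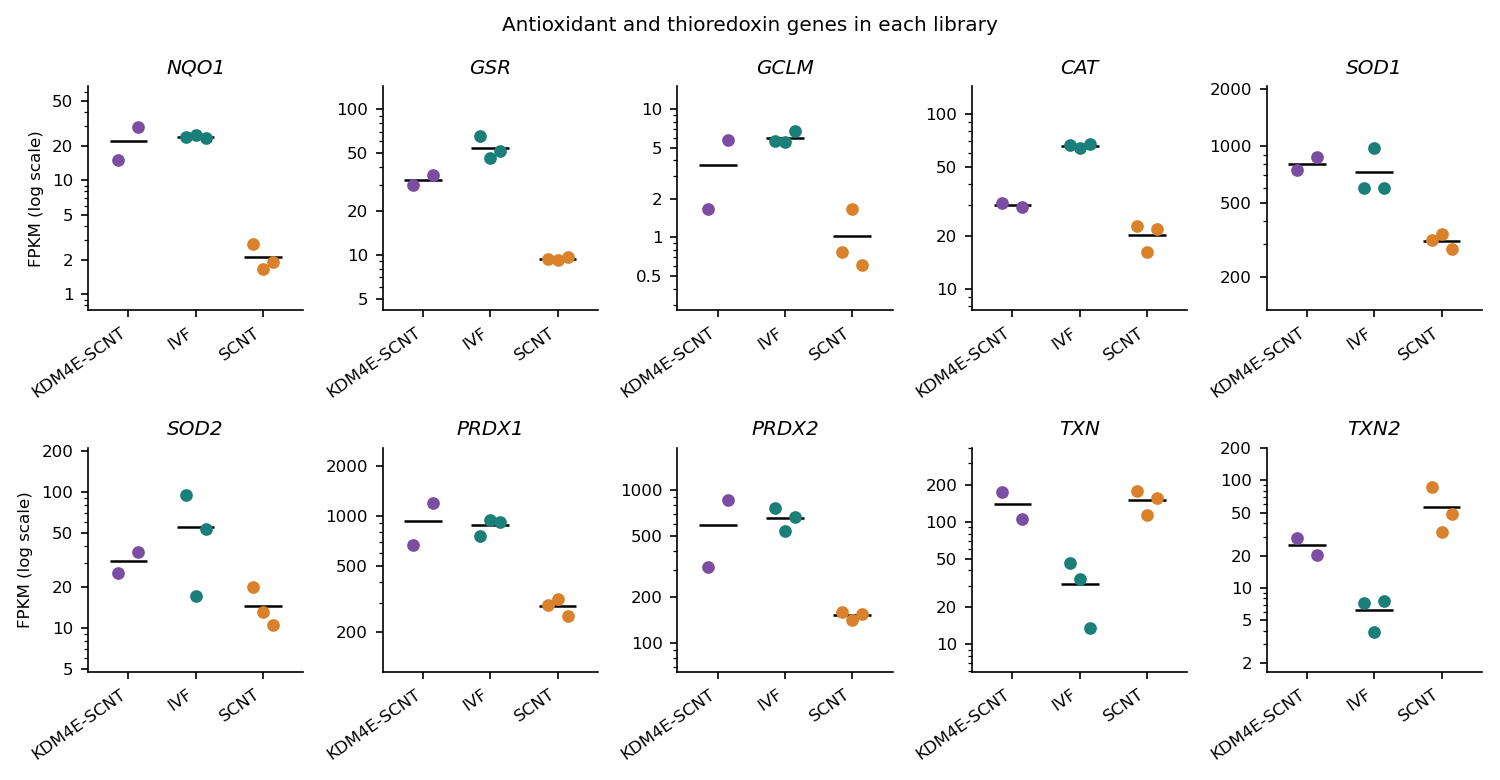
FPKM (log scale) of the 10 genes in each library of KDM4E-SCNT, IVF and SCNT, where a point is a library and a black bar is the group mean. TXN and TXN2 are low in IVF, at 13.48 to 45.74 and 3.86 to 7.51 FPKM, while the SCNT points are the lowest of the 3 groups for NQO1, GSR, CAT, SOD1, PRDX1 and PRDX2.

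In all groups PRDX1, SOD1 and PRDX2 held most of the FPKM of the 10 genes. Their share of the summed FPKM of the 10 was 84.9% and 91.8% in the KDM4E-SCNT libraries, 87.2% to 92.7% in IVF and 70.7% to 80.9% in SCNT. The 10 genes together took 0.253% and 0.423% of all FPKM in KDM4E-SCNT, 0.326% to 0.379% in IVF and 0.116% to 0.129% in SCNT. The order below these 3 genes differed between groups. In KDM4E-SCNT it ran TXN, GSR, SOD2, CAT, TXN2, NQO1 and GCLM, and the libraries of neighbours overlapped between GSR, SOD2 and CAT and between TXN2 and NQO1. In IVF it ran CAT, SOD2, GSR, TXN, NQO1, TXN2 and GCLM, with overlap of neighbours from CAT to GSR, between TXN and NQO1 and between TXN2 and GCLM. In SCNT it ran TXN, TXN2, CAT, SOD2, GSR, NQO1 and GCLM. There the libraries of TXN overlapped those of PRDX2, those of CAT overlapped SOD2, and those of NQO1 overlapped GCLM.

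NQO1, a cytosolic enzyme that reduces quinones with NADPH or NADH, showed the largest difference of the 10 genes from SCNT in KDM4E-SCNT, and in IVF it differed from SCNT about as much as TXN2, which differed more under median-ratio, upper-quartile and quantile scaling and without IVF replicate 1, IVF replicate 3 or SCNT replicate 2. It lies on chromosome 18, 36911358 to 36924689 (UMD3.1, feature ENSBTAG00000020632.3). Its level was 14.96 and 29.21 FPKM in KDM4E-SCNT replicates 1 and 2, 24.25, 24.81 and 23.78 FPKM in IVF replicates 1 to 3 and 2.75, 1.67 and 1.91 FPKM in SCNT replicates 1 to 3. Every SCNT library was below every other library, and the IVF libraries fell between the KDM4E-SCNT libraries. KDM4E-SCNT exceeded SCNT 7.14-fold in NQO1 (log2 difference 2.84 ± 0.37 SE, limma adjusted p = 0.000666). IVF exceeded SCNT 8.21-fold in NQO1 (3.04 ± 0.33, limma adjusted p = 1.26e-05). Both folds are on the scale log2(FPKM + 1), which shrinks differences from low levels such as those of SCNT here. With 0.1 added in place of 1, the KDM4E-SCNT difference from SCNT was 3.28. By rank, NQO1 was above 71% and 79.7% of tested features in KDM4E-SCNT, above 77.9% to 78.8% in IVF and above 33.3% to 45.1% in SCNT, so its place within a library differed too, a measure that needs no scaling between libraries. In these pools, fewer cells with a transcript and less transcript per cell cannot be told apart.

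GSR, glutathione reductase, uses NADPH to return oxidised glutathione to its reduced form (chromosome 27, 25943820 to 25973543, ENSBTAG00000007115.5). It stood at 30.1 and 35.03 FPKM in KDM4E-SCNT, at 65.35, 45.94 and 51.68 in the IVF pools and at 9.29, 9.15 and 9.69 in SCNT. The groups formed 3 separate steps with no overlap, and the SCNT libraries were nearly equal. GSR was higher by 1.69 ± 0.31 on the log2 scale in KDM4E-SCNT than in SCNT (adjusted p = 0.00235) and by 2.40 ± 0.28 in IVF (adjusted p = 1.89e-05). Set against IVF, KDM4E-SCNT was lower by a log2 difference of -0.71 ± 0.31, which did not pass (adjusted p = 0.228, unadjusted p = 0.0402).

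GCLM, the modifier subunit of the enzyme that makes the first bond of glutathione, was the least abundant of the 10 (chromosome 3, 49741375 to 49759098, ENSBTAG00000007842.5). It stood at 1.68 and 5.7 FPKM in KDM4E-SCNT, at 5.63, 5.52 and 6.71 in the IVF pools and at 0.77, 1.68 and 0.61 in SCNT. KDM4E-SCNT replicate 1 equalled the highest SCNT library, and replicate 2 was within the IVF range. GCLM was higher in IVF than in SCNT (log2 difference 1.82 ± 0.40, adjusted p = 0.00186). The difference of KDM4E-SCNT from SCNT, 1.11 ± 0.45, did not pass (adjusted p = 0.0735), and it passed with KDM4E-SCNT replicate 1 left out (1.77, adjusted p = 0.0183). At these levels a pseudocount of 1 shrinks the differences. With 0.1 in its place the IVF difference of GCLM from SCNT was 2.55.

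CAT, the peroxisomal catalase that splits hydrogen peroxide, separated IVF from both cloned groups (chromosome 15, 65779325 to 65815261, ENSBTAG00000020980.5). It stood at 30.92 and 29.57 FPKM in KDM4E-SCNT, at 66.3, 64.41 and 67.59 in the IVF pools and at 22.78, 16.13 and 22.07 in SCNT. The replicates of each group lay close together and no groups overlapped. IVF exceeded SCNT in CAT by 1.67 ± 0.27 on the log2 scale (adjusted p = 0.000218). KDM4E-SCNT exceeded SCNT by 0.57 ± 0.30, which did not pass (adjusted p = 0.164, 95% interval -0.09 to 1.22). CAT was lower in KDM4E-SCNT than in IVF (-1.10 ± 0.30, adjusted p = 0.0474), a call that ended when any 1 of the 5 libraries was left out (adjusted p from 0.0688 to 0.211), under the replicate block (0.0839), median-ratio scaling (0.0519), a fit of these groups alone (0.095) and no filter on low values (0.0692).

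SOD1, the copper and zinc superoxide dismutase of the cytosol, was abundant in every library (chromosome 1, 3113949 to 3122613, ENSBTAG00000018854.4). It stood at 741.55 and 870.65 FPKM in KDM4E-SCNT, at 595.08, 978.61 and 599.59 in the IVF pools and at 317.08, 339.97 and 284.39 in SCNT. The SCNT libraries were below all others, and the KDM4E-SCNT libraries lay within the IVF range. SOD1 was higher than in SCNT by 1.36 ± 0.29 in KDM4E-SCNT (adjusted p = 0.00483) and by 1.17 ± 0.26 in IVF (adjusted p = 0.00198). Another feature, ENSBTAG00000027412.3 on chromosome 13 (51930067 to 51930888), carries a SOD1-like description and could share reads with SOD1. It stood at 1.67 and 0.33 FPKM in KDM4E-SCNT, 0 to 0.22 in IVF and 1.01 to 4.07 in SCNT, far below SOD1.

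SOD2, the manganese enzyme of mitochondria, varied most among the IVF libraries (chromosome 9, 97399159 to 97404522, ENSBTAG00000006523.5). It stood at 25.48 and 36.35 FPKM in KDM4E-SCNT, at 95.18, 17.08 and 53.63 in the IVF pools and at 19.87, 13.01 and 10.56 in SCNT. IVF replicate 2 lay inside the SCNT range, so IVF and SCNT overlapped. SOD2 was called higher in IVF than in SCNT (log2 difference 1.60 ± 0.50, adjusted p = 0.015), and it lost the call with IVF replicate 1 left out (adjusted p = 0.0751), with IVF replicate 3 (0.0544) or SCNT replicate 3 left out (0.0616), and under median-ratio scaling (0.0532). Over all alternatives its adjusted p ran from 0.000476 to 0.0751. Its difference of 1.07 ± 0.56 between KDM4E-SCNT and SCNT did not pass (adjusted p = 0.156).

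PRDX1 and PRDX2, cytosolic peroxiredoxins that reduce hydrogen peroxide and are themselves reduced by thioredoxin, were higher in both other groups than in SCNT. PRDX1 (chromosome 3, 101152892 to 101166725, ENSBTAG00000003642.3) stood at 670.39 and 1188.99 FPKM in KDM4E-SCNT, at 761.87, 945.87 and 919.04 in the IVF pools and at 293.81, 316.38 and 250.44 in SCNT. PRDX2 (chromosome 7, 13845843 to 13848479, ENSBTAG00000012062.3) stood at 314.48 and 861.95 FPKM in KDM4E-SCNT, at 758.03, 539.52 and 669.21 in the IVF pools and at 160.86, 142.82 and 156.26 in SCNT. For both genes SCNT was below every other library, and the KDM4E-SCNT libraries enclosed the IVF range. PRDX1 was higher than in SCNT by 1.64 ± 0.30 in KDM4E-SCNT (adjusted p = 0.00213) and by 1.61 ± 0.26 in IVF (adjusted p = 0.000242). PRDX2 was higher than in SCNT by 1.76 ± 0.37 in KDM4E-SCNT (adjusted p = 0.00458) and by 2.08 ± 0.33 in IVF (adjusted p = 0.000198). Leaving out KDM4E-SCNT replicate 2 moved the PRDX2 difference from SCNT to 1.03 (adjusted p = 0.0568), and its adjusted p lay between 0.00134 and 0.0568 over the alternatives. Near-identical peroxiredoxin copies elsewhere in the genome were not searched for.

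The thioredoxins went the other way. TXN, the cytosolic thioredoxin (chromosome 8, 101484812 to 101492588, ENSBTAG00000002953.5), stood at 175.12 and 105.32 FPKM in KDM4E-SCNT, at 45.74, 33.79 and 13.48 in the IVF pools and at 178.01, 114.45 and 155.77 in SCNT. All IVF libraries were below all libraries of cloned embryos, and KDM4E-SCNT overlapped SCNT. TXN was 5.16-fold lower in IVF than in SCNT (log2 difference -2.37 ± 0.40, adjusted p = 0.000318). Between KDM4E-SCNT and SCNT the difference was -0.11 ± 0.45 (adjusted p = 0.867, 95% interval -1.09 to 0.87), and its sign changed under quantile normalization and without KDM4E-SCNT replicate 2 or SCNT replicate 1. By rank, TXN was above 95.5% and 92.9% of tested features in KDM4E-SCNT, above 68.8% to 86.3% in IVF and above 93.5% to 94.7% in SCNT.

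TXN2, the thioredoxin of mitochondria (chromosome 5, 75258029 to 75267776, ENSBTAG00000000014.4), stood at 29.33 and 20.34 FPKM in KDM4E-SCNT, at 7.19, 3.86 and 7.51 in the IVF pools and at 86.63, 33.06 and 49.12 in SCNT. The groups did not overlap, with KDM4E-SCNT between the others. TXN2 was 7.62-fold lower in IVF than in SCNT (-2.93 ± 0.39, adjusted p = 4.71e-05). The difference of KDM4E-SCNT from SCNT, -1.06 ± 0.43, did not pass (adjusted p = 0.0747, unadjusted p = 0.0287). It passed under median-ratio scaling (-1.52, adjusted p = 0.0187), under upper-quartile scaling (-1.30, 0.0341) and without SCNT replicate 2 (-1.38, 0.0353), in a range of 0.0187 to 0.348 over its alternatives.

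Set directly against IVF, KDM4E-SCNT embryos had more thioredoxin RNA. TXN was 4.77-fold higher (log2 difference 2.26 ± 0.45, adjusted p = 0.00882) and TXN2 3.65-fold higher (1.87 ± 0.43, adjusted p = 0.0196), and for both genes each KDM4E-SCNT library was above each IVF library, as were 20% of all features. Both calls ended without KDM4E-SCNT replicate 1 (adjusted p = 0.148 for TXN and 0.232 for TXN2), which leaves a single library assumed to vary like the others. The TXN2 call also ended without IVF replicate 2 (0.0544) and with no filter on low values (0.059). NQO1, GCLM, SOD1, SOD2, PRDX1 and PRDX2 did not pass, and their 95% intervals were wide enough that equal levels cannot be read from them. The interval ran from -1.01 to 0.60 for NQO1, from -0.60 to 0.67 for PRDX1 and from -1.75 to 0.67 for SOD2 on the log2 scale.

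**Figure D2:**
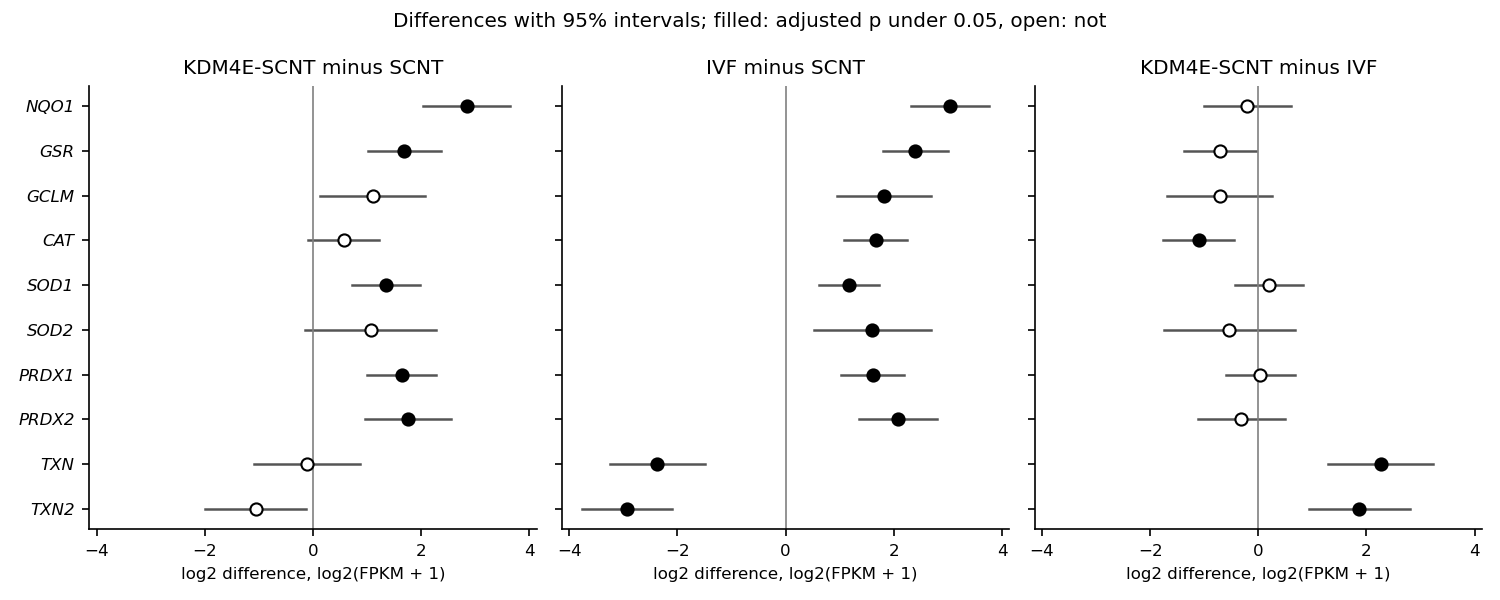
Log2 differences of the 10 genes, on the scale log2(FPKM + 1), with 95% intervals from limma, for KDM4E-SCNT minus SCNT, IVF minus SCNT and KDM4E-SCNT minus IVF. Filled points have an adjusted p under 0.05, and TXN and TXN2 stand to the left of 0 in IVF minus SCNT (-2.37 and -2.93) and to the right in KDM4E-SCNT minus IVF (2.26 and 1.87).

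Ratios of a pair of genes within a library do not depend on how libraries are scaled. There were 0.261 and 0.0886 units of TXN per unit of PRDX1, its peroxidase partner, in KDM4E-SCNT, 0.0147 to 0.06 in IVF and 0.362 to 0.622 in SCNT. TXN per unit of GSR was 5.82 and 3.01 in KDM4E-SCNT, 0.261 to 0.736 in IVF and 12.5 to 19.2 in SCNT. For both ratios the groups did not overlap, with KDM4E-SCNT between the others. On the log2 scale the TXN to PRDX1 ratio differed by -4.03 between IVF and SCNT and by -1.76 between KDM4E-SCNT and SCNT. No test is given for the ratios, since the pairs were picked with these values in view. Other ratios overlapped in at least 1 pair of groups. PRDX1 over PRDX2 was 2.13 and 1.38 in KDM4E-SCNT, 1.01 to 1.75 in IVF and 1.6 to 2.22 in SCNT, with overlap between all groups. SOD1 over SOD2 was 29.1 and 24 in KDM4E-SCNT, 6.25 to 57.3 in IVF and 16 to 26.9 in SCNT, and the IVF range took in all other libraries. TXN over TXN2 was 5.97 and 5.18 in KDM4E-SCNT, 1.79 to 8.75 in IVF and 2.05 to 3.46 in SCNT, so KDM4E-SCNT stood above SCNT and IVF overlapped both.

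**Figure D3:**
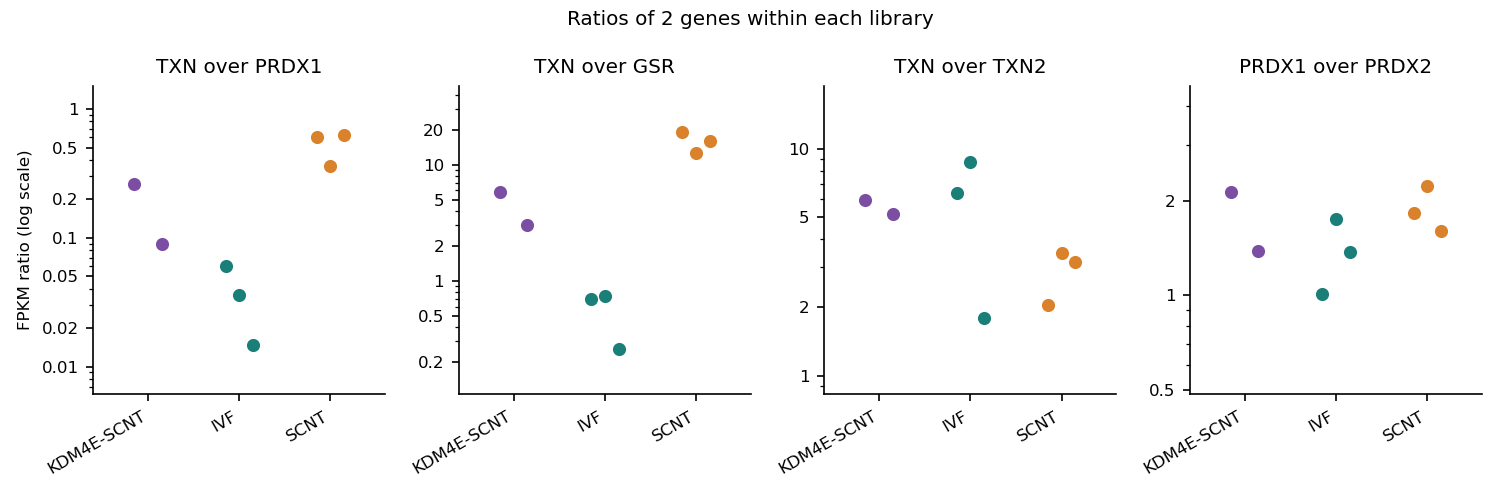
FPKM ratios of gene pairs (log scale) within each library of KDM4E-SCNT, IVF and SCNT, a point per library. TXN over PRDX1 and TXN over GSR separate the groups, with IVF lowest (0.0147 to 0.06 and 0.261 to 0.736), while PRDX1 over PRDX2 overlaps between them.

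The enzymes around these 10 genes were read from a list of 70 related symbols, of which 62 had a feature and 56 features were tested. This list too was chosen with earlier results of these data known, so its counts are descriptive. In IVF against SCNT, 25 of the 56 were called higher and 15 lower, 71.4% in all beside 58.5% of all features, with a median log2 difference of 0.52 beside 0.39. In KDM4E-SCNT against SCNT, 16 were called higher and 6 lower, 39.3% beside 32.6% of all features, with a median of 0.35 beside 0.32. Without KDM4E-SCNT replicate 2 the last counts were 2 and 2, and under median-ratio scaling they were 7 and 10. In KDM4E-SCNT against IVF, 3 were called higher and 0 lower in limma, beside 6.52% of all features. At an unadjusted p under 0.05 there were 6 and 3.

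A list of thioredoxin-related genes held 9 tested features, in which TXNRD1 was the only reductase and most were thioredoxin-like proteins. Of the 9, 5 were higher and 4 lower in IVF than in SCNT. In KDM4E-SCNT against SCNT 3 were higher and 2 lower. The higher calls in both comparisons count TXNDC5 more than once, through the features described below. These counts and the list counts that follow stand beside 34.9% of all features higher and 23.6% lower in IVF against SCNT. In KDM4E-SCNT against SCNT the shares were 21.6% higher and 11% lower. Both features of TXNDC5, a disulfide isomerase of the endoplasmic reticulum, overlap in position and can share reads, and the second was named through its RefSeq accession. ENSBTAG00000019237.5 was higher by 1.98 ± 0.47 and ENSBTAG00000046839.1 by 1.50 ± 0.37 in KDM4E-SCNT than in SCNT (adjusted p = 0.00832 and 0.00958). TXNDC17, a thioredoxin-like protein of the cytosol, stood at 32.92 and 19.92 FPKM in KDM4E-SCNT and at 66.21 to 159.77 FPKM in SCNT (log2 difference -1.81 ± 0.42, adjusted p = 0.00701). All 3 of these calls ended without KDM4E-SCNT replicate 2 (adjusted p = 0.0973, 0.0607 and 0.0891). TXNRD1, the cytosolic reductase that returns TXN to its reduced form and was named after its values were seen, stood at 26.01 and 19.99 FPKM in KDM4E-SCNT, 14.42 to 18.33 in IVF and 27.53 to 52.65 in SCNT. Like TXN it was lower in IVF than in SCNT (-1.27 ± 0.32, adjusted p = 0.00425).

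The next list held 7 tested features, the peroxiredoxins PRDX3 to PRDX6 and the sestrins SESN1 to SESN3. In IVF against SCNT 4 were higher and 1 was lower (71.4% called, beside 58.5% of all features). In KDM4E-SCNT against SCNT 3 were higher and 1 was lower (57.1%, beside 32.6%). Most of the higher calls were sestrins, namely SESN1, SESN2 and SESN3 in IVF and SESN1 and SESN3 in KDM4E-SCNT. Of the peroxiredoxins, PRDX3 alone was called higher and PRDX4 alone lower in both comparisons. The following were named after their values were seen. PRDX3, the mitochondrial peroxiredoxin that TXN2 reduces, stood at 58.81 and 123.09 FPKM in KDM4E-SCNT, 75.92 to 119.2 in IVF and 24.34 to 43.78 in SCNT, thus higher in IVF than in SCNT (log2 difference 1.51 ± 0.34, adjusted p = 0.00226) while TXN2 was lower. PRDX4, the peroxiredoxin of the endoplasmic reticulum, stood at 58.19 and 46.02 FPKM in KDM4E-SCNT, 24.8 to 39.74 in IVF and 95.63 to 174.74 in SCNT, and was lower in IVF than in SCNT (-1.87 ± 0.32, adjusted p = 0.000298).

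Genes of glutathione synthesis and use were 9 higher and 5 lower of 19 in IVF against SCNT, and 5 higher and 1 lower in KDM4E-SCNT against SCNT. The called share was 73.7% in IVF against SCNT, beside 58.5% of all features, and 31.6% in KDM4E-SCNT against SCNT, near the 32.6% of all features. GGCT, which releases 5-oxoproline during glutathione breakdown, stood at 232.12 and 414.32 FPKM in KDM4E-SCNT, 400.34 to 470.21 in IVF and 32.39 to 49.07 in SCNT. GGCT was higher than in SCNT by 2.97 ± 0.32 in KDM4E-SCNT (adjusted p = 0.000422) and by 3.44 ± 0.29 in IVF (adjusted p = 2.2e-06). Of the microsomal glutathione transferases, MGST1 was lower and MGST2 higher in IVF than in SCNT, while MGST3 did not pass (log2 difference 0.58, adjusted p = 0.125). MGST1 stood at 2.77 and 4.92 FPKM in KDM4E-SCNT, 0.93 to 2.79 in IVF and 32.06 to 51.11 in SCNT, and was lower than in SCNT by log2 differences of -3.23 ± 0.41 in KDM4E-SCNT (adjusted p = 0.00064) and -3.96 ± 0.37 in IVF (adjusted p = 4.12e-06). MGST2 stood at 21.79 and 32.94 FPKM in KDM4E-SCNT, 43.96 to 66.7 in IVF and 4.74 to 12.75 in SCNT, and was higher in IVF than in SCNT (log2 difference 2.62 ± 0.36, adjusted p = 7.14e-05). GPX8, a glutathione peroxidase family member of the endoplasmic reticulum, was higher in IVF than in SCNT (log2 difference 2.45 ± 0.40, adjusted p = 0.000214). GSTO1, a glutathione transferase, has 2 features, which may share reads, and ENSBTAG00000038540.2 stood at 9.45 and 3.22 FPKM in KDM4E-SCNT, 0 to 0.83 in IVF and 8.31 to 24.09 in SCNT. The other, ENSBTAG00000003989.5, stood at 6.76 and 3.91 FPKM in KDM4E-SCNT, 0, 0 and 7.2 in IVF and 8.84 to 19.32 in SCNT. ENSBTAG00000038540.2 was lower in IVF than in SCNT (-3.59 ± 0.46, adjusted p = 4.03e-05) and higher in KDM4E-SCNT than in IVF (2.28 ± 0.52, adjusted p = 0.0175, lost without KDM4E-SCNT replicate 1 at 0.287, without IVF replicate 1 at 0.0651 and with no filter at 0.0579). GSTK1 was also higher in KDM4E-SCNT than in IVF (1.59 ± 0.41, adjusted p = 0.0364), a call that ended in 9 of its 13 alternatives, where the adjusted p ran from 0.0519 to 0.359.

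Enzymes that supply NADPH or feed its synthesis were 4 higher and 2 lower of 8 in IVF against SCNT, and 3 higher and 2 lower in KDM4E-SCNT against SCNT. That is 75% called in IVF against SCNT, beside 58.5% of all features, and 62.5% in KDM4E-SCNT against SCNT, beside 32.6%. TKT, the transketolase of the pentose phosphate pathway, stood at 31.71 and 23.42 FPKM in KDM4E-SCNT, 1.34 to 4.3 in IVF and 55.12 to 105.53 in SCNT. TKT was lower in IVF than in SCNT (-4.41 ± 0.37, adjusted p = 2.2e-06), lower in KDM4E-SCNT than in SCNT (-1.46 ± 0.41, adjusted p = 0.0179) and higher in KDM4E-SCNT than in IVF (2.96 ± 0.41, adjusted p = 0.00117). The call of TKT against SCNT in KDM4E-SCNT ended without KDM4E-SCNT replicate 2 (adjusted p = 0.14), SCNT replicate 1 (0.0723) or SCNT replicate 3 (0.0531). ME1, the cytosolic malic enzyme, stood at 3.49 and 18.93 FPKM in KDM4E-SCNT, 6.24 to 14.03 in IVF and 0 to 1.58 in SCNT. ME1 was higher in KDM4E-SCNT than in SCNT (2.49 ± 0.60, adjusted p = 0.00875), and the call ended without KDM4E-SCNT replicate 2 (0.143). Of 11 tested regulators and other targets of the KEAP1 and NFE2L2 pathway, 3 were higher and 2 lower in IVF against SCNT, 45.5% in all beside 58.5% of all features, and 2 were higher and 0 lower in KDM4E-SCNT against SCNT in limma, 18.2% beside 32.6%, with NFE2L2 alone lower at an unadjusted limma p under 0.05. NFE2L2 itself, named after its values were seen, stood at 3.54 and 8.86 FPKM in KDM4E-SCNT, 10.99 to 14 in IVF and 9.83 to 19.29 in SCNT, and IVF and SCNT overlapped. One copper chaperone of SOD1, CCS, was tested beside the superoxide dismutases, and one methionine sulfoxide reductase, MSRB2, which did not pass in any comparison. CCS was lower in IVF than in SCNT (-1.50 ± 0.48, adjusted p = 0.0163), a call that ended without IVF replicate 2 (-0.88, adjusted p = 0.0539).

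**Figure D4:**
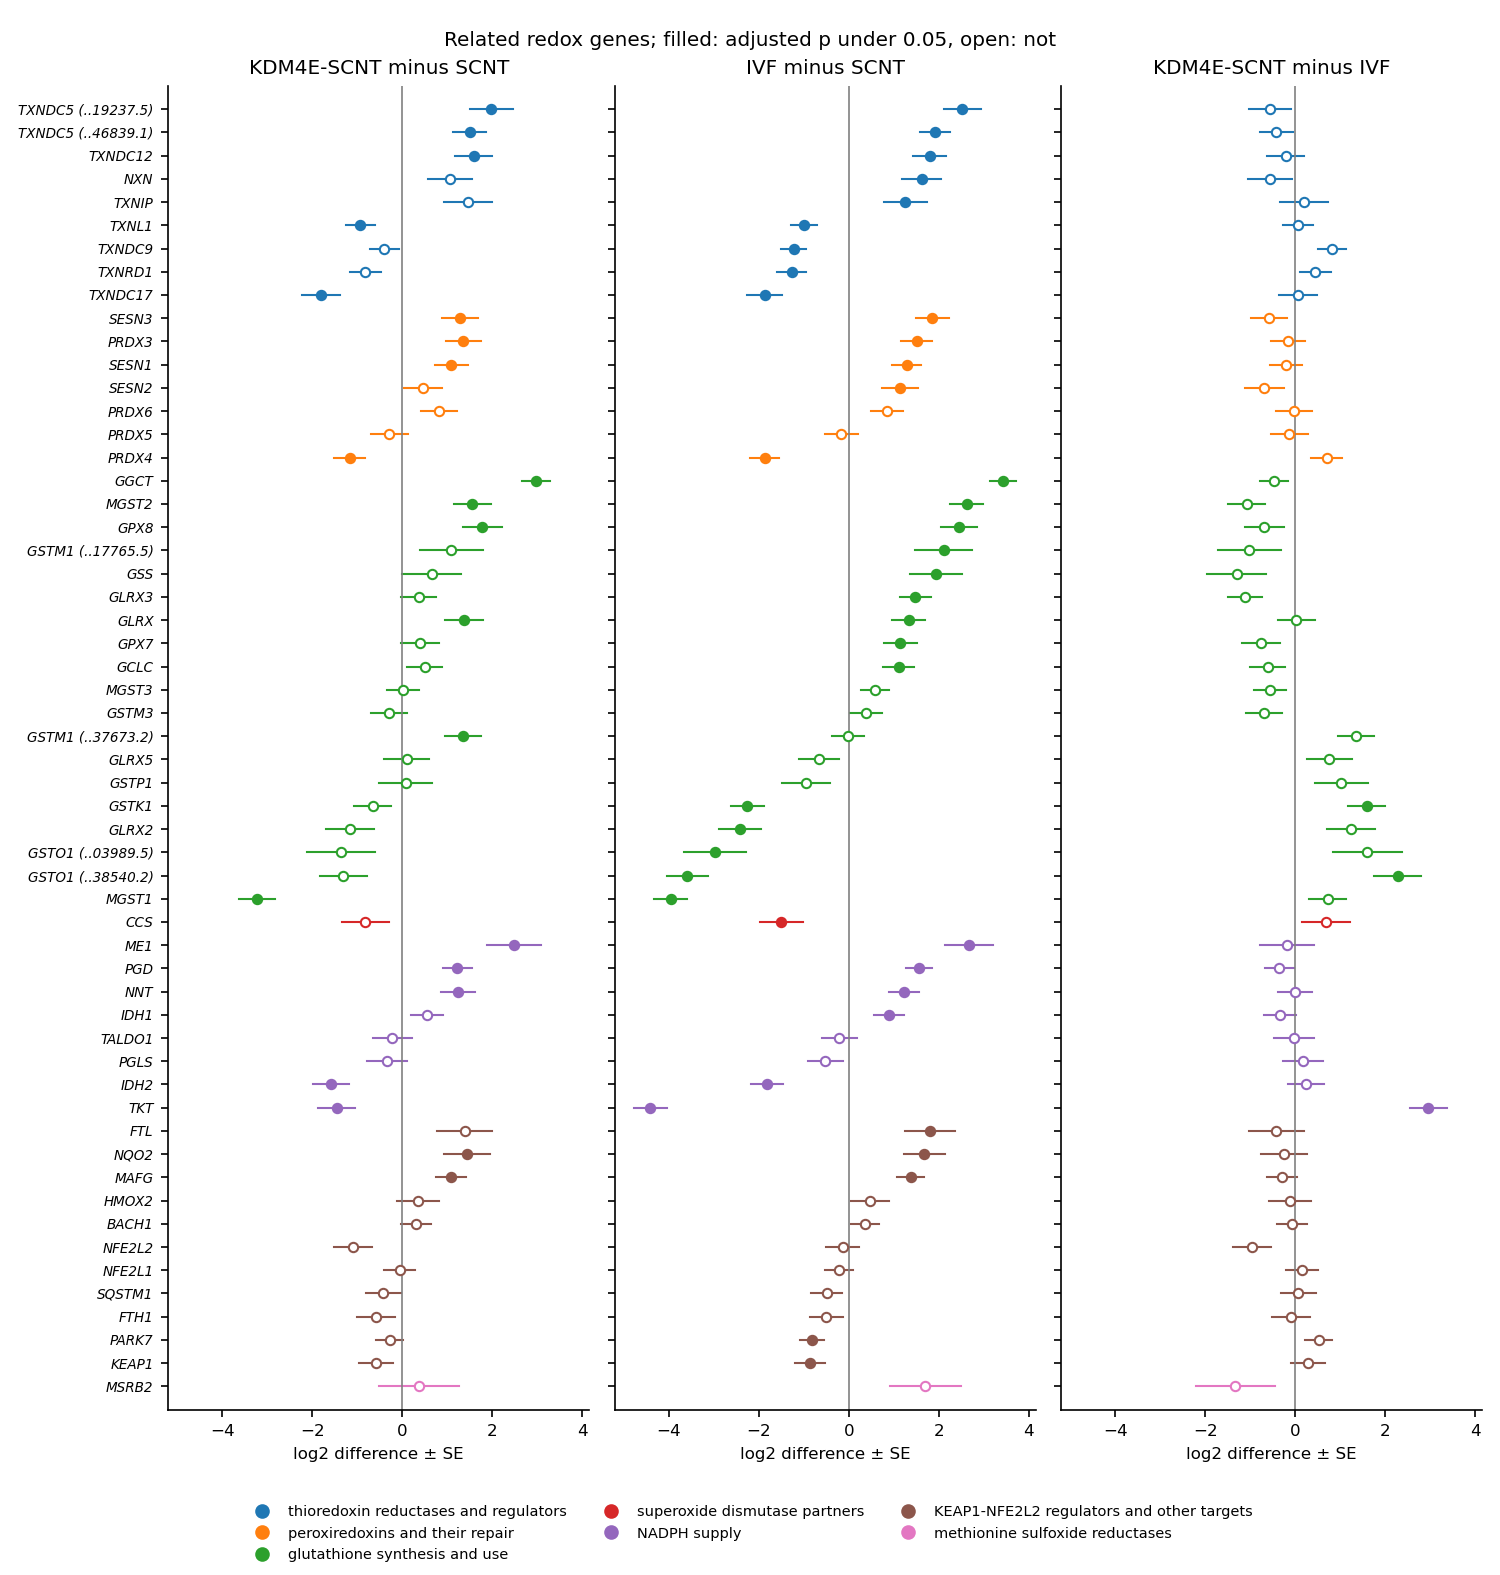
Log2 differences ± SE of the 56 tested related redox features on the scale log2(FPKM + 1), coloured by list, for the 3 comparisons, with filled points at an adjusted p under 0.05. Genes with 2 features carry the end of their identifier, and GGCT (3.44) and TKT (-4.41) mark the extremes of IVF minus SCNT.

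The profile of NQO1 over the 8 libraries was compared with those of 10333 other tested features with a symbol, by the mean absolute difference of log2(FPKM + 1) after each feature's own mean was taken away. The nearest were FBXO4 (0.129), CNNM2 (0.148), GFI1 (0.162) and PEX5L (0.169). FBXO4, a substrate receptor of a ubiquitin ligase, stood at 35.82 and 54.54 FPKM in KDM4E-SCNT, 58.12 to 72.88 in IVF and 5.85 to 7.3 in SCNT. Of the other antioxidant and thioredoxin genes, GSR (0.436) and PRDX2 (0.472) were nearest to NQO1, and 4.73% and 6.35% of features were nearer still. TXN (2.23) and TXN2 (2.42) were farthest, with 89.9% and 93.7% of features nearer to NQO1.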

How the data were processed

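Libraries from pools of 8 bovine embryos were sequenced by the authors, who deposited 1 table of FPKM per gene and library. Per the submitters' processing notes, bcl2fastq 2.16, HISAT 0.1.6, StringTie 1.0.4, Bowtie2 2.2.5 and RSEM 1.2.12 were used with the bovine build UMD3.1, and the way FPKM was calculated is not given in the sources used here. FPKM holds no depth, so no counting interval was computed, and the number of libraries limits the precision.

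The deposited FPKM were transformed to log2(FPKM + 1), which understates differences of low genes. Features with 1 FPKM or more in at least 2 libraries were tested over all 8 libraries with limma 3.58.1 (R 4.3.3, trend and robust options), with Benjamini-Hochberg adjustment over 14839 features and a threshold of 0.05 in each of 3 comparisons. Fold changes are on that scale. Symbols came from the files (14158 features) or, through accessions, from RefSeq's ARS-UCD2.0 table (392 features), and coordinates are those of the files.

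The 10 genes, the related lists and the marker lists were chosen with earlier results of these data known. All 10 genes are named, with up to 6 related genes per comparison that passed with the smallest p, the 4 features nearest to NQO1 and a few genes said to be chosen after their values were seen. Alternatives changed the pseudocount, filter, scaling, replicate block and libraries. A gene with a near-identical copy may have reads split between copies, since the handling of such reads is not given in the sources used here. Of 70 related symbols, 8 were not analysed here.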

Additional observations from a re-analysis of the deposited data

How the results depend on the processing

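Beside the fit reported, 16 settings were tried where they applied. Of the single-gene values, 549 kept direction and side of the threshold, 34 lost the threshold, 4 gained it and 10 changed sign. In KDM4E-SCNT against SCNT, 1 of the 10 genes (TXN2) was called lower under either median-ratio or upper-quartile scaling, and 7 related genes were higher and 10 lower under median-ratio scaling. Leaving out 1 library gave 1553 to 4499 calls over all features (4844 with all libraries), 4 to 6 of the 10 genes higher, 0 to 1 lower, and 2 to 14 related genes higher and 2 to 7 lower. The TXN difference changed sign to 0.04 under quantile normalization, 0.25 without KDM4E-SCNT replicate 2 and 0.02 without SCNT replicate 1, in a range of -0.48 to 0.25 with 1 library left out. In IVF against SCNT, 5505 features were called under a filter of mean FPKM 5 or more, which tests fewer features and leaves out GCLM (8680 in the fit reported). Leaving out 1 library kept the counts of called genes within 1.5 times. In KDM4E-SCNT against IVF, 1 gene was higher and 0 lower with no filter, 0 were lower under median-ratio scaling, the replicate block and a fit of only these groups, and that fit called 541 features (967 in the fit reported). Leaving out 1 library gave 0 to 2 genes higher, 0 lower, 298 to 1301 calls over all features, and 1 to 3 related genes higher and 0 to 3 lower. Signs changed for NQO1 without KDM4E-SCNT replicate 1 (0.26), SOD2 without IVF replicate 1 (0.00096), PRDX2 without KDM4E-SCNT replicate 1 (0.41), and PRDX1 under upper-quartile scaling (-0.02), quantile normalization (-0.08), without KDM4E-SCNT replicate 2 (-0.38) and without IVF replicate 1 (-0.06). With 1 library left out the lowest and highest values were -0.66 and 0.26 for NQO1, -1.20 and 0.00096 for SOD2, -0.38 and 0.45 for PRDX1 and -1.04 and 0.41 for PRDX2. The cause was not tested. Median-ratio, upper-quartile and quantile scaling moved the median log2 difference of all features by -0.31, -0.16 and -0.32 in KDM4E-SCNT against SCNT and by -0.29, -0.12 and -0.22 in IVF against SCNT. The share of calls that were higher went to 43.3%, 53.8% and 49.8% in KDM4E-SCNT against SCNT (66.2% in the fit reported) and to 48.9% under median-ratio scaling in IVF against SCNT (59.7%). Deviations from the group means correlated at 0.00649 to 0.123 between libraries with the same replicate number. Between libraries with different numbers the correlation ran from -0.134 to 0.134. Deviations from means of 2 or 3 libraries are tied to each other, so these values cannot show whether same-numbered libraries shared a batch. With the number as a block, 4252, 8656 and 957 features were called in KDM4E-SCNT against SCNT, IVF against SCNT and KDM4E-SCNT against IVF, and of the calls on the 10 genes only that of CAT in KDM4E-SCNT against IVF ended (-1.06, adjusted p = 0.0839).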

Other observations

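Some well-known redox genes were too low to be tested. Over all 8 libraries the highest value was 0.34 FPKM for HMOX1, an NFE2L2 target that breaks down haem, 1.11 FPKM for SLC7A11, the cystine transporter, and 1.04 FPKM for SRXN1, which repairs overoxidised peroxiredoxins. TXNRD2, the mitochondrial reductase that acts on TXN2, reached 0.36 FPKM. GPX3, MAFF, MAFK and MSRA reached 0.81, 0.69, 0.36 and 0.21 FPKM. The depth behind these values is unknown, so they do not show that the genes were silent.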
